A study of Mus musculus with 9 samples.

Results

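Omt2a, Omt2b, Oas1d, Fbxw15, Pramel25 and Elobl are mouse genes known for transcripts that accumulate in oocytes, and most of them sit in tandem families of related genes. Every array probe whose current symbol or synonym was one of these 6 names was taken, which gave 10 of the 45281 probes, and the 6 genes, called members below, stand among 19057 named on the array. The genes were selected on the signals of these arrays, having been among the largest differences of putative female germ cells and oocytes from cultured spermatogonial stem cells. Their differences from the stem cells are therefore given as a description with no test, and only the contrast of putative female germ cells with oocytes, together with genes outside the 6, was tested. That contrast is not fully free of the choice either, because it shares the putative female germ cell arrays with it.

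RNA from C57BL/6 mouse cells was hybridised to 9 single-colour Illumina expression arrays, 3 per group. PFGC are cells labelled as putative female germ cells and collected by magnet sorting, and the series title presents them as derived from spermatogonial stem cells. Oocytes were also collected by magnet sorting, and SSC are spermatogonial stem cells, germ cells that renew themselves in the testis, sampled here from culture. The labels name no antibody, age, tissue of origin or transgene for any group, and leave it unstated whether replicates are separate animals or cultures, so p-values measure only a spread that may be technical.

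Omt2a and Omt2b are named for transcripts of the maturing oocyte, and no function is assigned to them here. OAS enzymes sense double-stranded RNA and make oligoadenylates that activate RNase L, while the mouse OAS1D protein lacks this activity and can inhibit OAS1A. F-box proteins with WD repeats such as FBXW15 are substrate receptors of SCF ubiquitin ligases, which also contain SKP1, CUL1 and RBX1. Pramel25 belongs to the PRAME family of leucine-rich repeat proteins, much expanded in the mouse and active in germ cells and early embryos, and Elobl is related to elongin B, the partner of elongin C in cullin ubiquitin ligases.

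The 250 bases before the start of 5 of the 6 genes are shown because these genes shared one expression pattern, and they were searched on both strands for sites of oocyte regulators. RefSeq places them, on build GRCm38.p6, at chr9:78314049-78314298 (minus strand) for Omt2a, chr9:78327780-78328029 (plus) for Omt2b, chr9:109568263-109568512 (minus) for Fbxw15, chr4:143789084-143789333 (plus) for Pramel25 and chr11:88966932-88967181 (minus) for Elobl. Each runs 5′ to 3′ on the strand of its gene, with capitals for matches to the E-box CANNTG, the general letters bound by basic helix-loop-helix factors such as FIGLA, and to TAATTG, a site of the oocyte homeobox factor NOBOX. Capitals reading CAATTA are TAATTG on the other strand.
Omt2a: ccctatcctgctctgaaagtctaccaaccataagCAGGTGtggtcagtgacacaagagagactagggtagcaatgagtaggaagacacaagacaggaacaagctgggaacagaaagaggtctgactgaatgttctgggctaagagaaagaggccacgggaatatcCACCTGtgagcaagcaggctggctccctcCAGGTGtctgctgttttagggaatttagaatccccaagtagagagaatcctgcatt
Omt2b: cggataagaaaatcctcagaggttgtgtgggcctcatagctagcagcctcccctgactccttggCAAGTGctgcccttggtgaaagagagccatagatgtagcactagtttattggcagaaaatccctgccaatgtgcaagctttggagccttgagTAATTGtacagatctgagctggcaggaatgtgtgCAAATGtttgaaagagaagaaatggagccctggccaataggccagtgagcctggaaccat
Fbxw15: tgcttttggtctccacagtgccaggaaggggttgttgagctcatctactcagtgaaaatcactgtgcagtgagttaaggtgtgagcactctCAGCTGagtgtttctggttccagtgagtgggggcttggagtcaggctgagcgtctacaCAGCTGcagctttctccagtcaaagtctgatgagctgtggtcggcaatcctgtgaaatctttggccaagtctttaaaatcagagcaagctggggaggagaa
Pramel25: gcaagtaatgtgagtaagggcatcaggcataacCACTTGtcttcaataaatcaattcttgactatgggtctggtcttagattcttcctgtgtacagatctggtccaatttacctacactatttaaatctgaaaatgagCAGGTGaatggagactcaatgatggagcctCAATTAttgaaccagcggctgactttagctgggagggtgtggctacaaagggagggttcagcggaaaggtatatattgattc
Elobl: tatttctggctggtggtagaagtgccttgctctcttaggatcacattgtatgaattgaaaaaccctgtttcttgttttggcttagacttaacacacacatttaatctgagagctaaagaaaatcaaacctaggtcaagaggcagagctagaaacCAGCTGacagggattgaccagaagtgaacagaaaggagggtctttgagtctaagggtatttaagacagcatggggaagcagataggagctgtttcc
The start used for Omt2a lies inside the full RefSeq span of that gene, so other transcripts of it start elsewhere. Every window held at least 1 E-box, and Omt2a had 3 in its window, with first bases at -216, -85 and -56 from the start. Over 300 bases, with 50 after the start included, the E-box counts were 3 for Omt2a and 2 for each of the other 4 genes, of which 1 in Elobl lay after the start. These letters are common, since 72.3% of 32851 RefSeq promoters of that length held an E-box, with a median of 1. TAATTG occurred once in Omt2b and once in Pramel25, against 8% of all promoters. Neither TAATTA, another NOBOX site, held by 5.29% of promoters, nor the core of the interferon-stimulated response element, GAAA followed after any 2 bases by GAAA and held by 3.44%, was found in the 5 windows. A match is a run of letters and is not evidence of binding.

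The arrays were of similar quality. Between 17631 and 18919 probes were detected per array (38.9% to 41.8%, detection p under 0.01), and the median signal ran from 104 to 109 in PFGC, from 116 to 122 in oocytes and from 108 to 110 in SSC. Oocyte markers such as zona pellucida genes were present in PFGC, since 11 of 12 listed markers were kept and all 11 were detected on every PFGC and oocyte array. Their summed signal was 20575 to 27767 in PFGC, 29685 to 35498 in oocytes and 1361 to 1451 in SSC. Granulosa cell markers moved with the oocyte groups too, with sums of 22108 to 27249 in PFGC, 29917 to 36971 in oocytes and 14571 to 19276 in SSC, and 4 of the 10 kept were detected on no SSC array. The list was mixed, with 8 genes higher and 2 lower than in SSC in both groups. Over all genes 23.8% were higher and 26.8% lower in PFGC, and 28.1% and 32.4% in oocytes. The 4 detected on no SSC array passed the filter through the groups where they were high, so the count of higher genes is no support. The 2 lower genes were Fshr, by -1.05 in PFGC and -1.13 in oocytes, and Amhr2, by -0.88 and -1.08. The part of granulosa cells in the results below was not tested, and in bulk RNA fewer cells of a type and less RNA per cell cannot be told apart.

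All 6 genes were strongly detected in PFGC and in oocytes, and all were at background in SSC. Each of the 10 probes was detected on all 3 PFGC and all 3 oocyte arrays. None was detected in SSC, where the 30 probe and array values had signals of 89.3 to 116 and detection p-values of 0.0385 to 0.943. All 10 probes passed the filter on dim probes, and they passed it through the PFGC and oocyte arrays, so the passing is no evidence of a difference. Differences from SSC are given as lower bounds ("at least"), because the SSC probe was replaced by the lowest signal of a detected probe on its array where that was higher. These bounds hold for background-corrected, normalized values only, and the ratios of deposited signals, which are not background-corrected, were smaller. Log2 levels are background-corrected, quantile-normalized values, and a level depends on the probe, so levels are compared between groups within a probe and not between genes.

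Omt2a was read by a pair of probes that gave nearly the same picture. Probe 1 had deposited signals of 4184, 4417 and 3386 in PFGC, against 4857, 5552 and 4643 in oocytes and 103, 94.6 and 108 in SSC. On the normalized log2 scale it was 12.04 ± 0.03 in PFGC, 12.10 ± 0.09 in oocytes and 4.53 ± 0.16 in SSC (SD, n = 3 each). The deposited signals of PFGC all lay below those of oocytes, whereas the normalized levels overlapped. On the background-corrected scale PFGC were at least 109-fold and oocytes at least 114-fold above SSC at this probe. Probe 2 was at 11.85 ± 0.05 in PFGC, 11.89 ± 0.07 in oocytes and 4.42 ± 0.06 in SSC, with bounds of 95.5-fold and 98.4-fold.

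Omt2b, its neighbour, showed the same order of groups but a large disagreement between its probes. Probe 1 had signals of 3051, 3166 and 2600 in PFGC, 3866, 4320 and 3711 in oocytes and 93.9, 90.0 and 91.8 in SSC. Probe 2 had signals of 227, 248 and 188 in PFGC, 291, 290 and 265 in oocytes and 92.2, 98.6 and 98 in SSC. Both probes separated PFGC and oocytes from SSC on every array, and the sizes differed: at least 80.8-fold for PFGC and at least 89.3-fold for oocytes at probe 1, but at least 3.84-fold and at least 4.50-fold at probe 2. Probe 2 lay at 7.21 ± 0.11 in PFGC, 7.44 ± 0.09 in oocytes and 4.39 ± 0.06 in SSC, while probe 1 lay at 11.60 ± 0.03, 11.75 ± 0.08 and 4.31 ± 0.04 in the same groups.

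**Figure D1:**
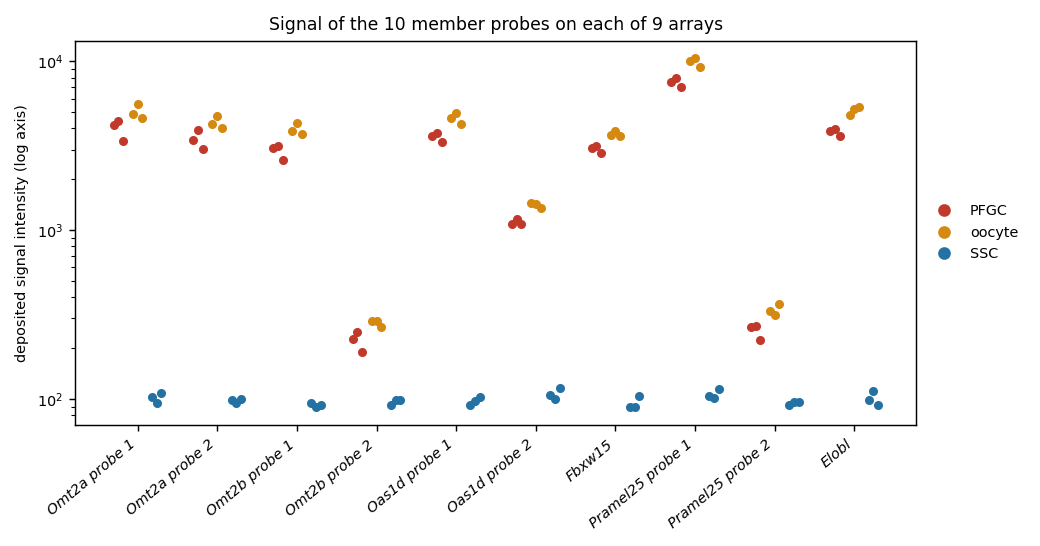
Deposited signal intensity (vertical log axis, arbitrary units) of the 10 member probes on each of the 9 arrays, 1 point per array, with PFGC, oocyte and SSC from left to right at each probe. All SSC points lie between 89.3 and 116, and at each probe the PFGC points lie below the oocyte points and above the SSC points.

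Oas1d, the catalytically inactive OAS family member, was read at probe 1 with signals of 3592, 3744 and 3337 in PFGC, 4588, 4914 and 4223 in oocytes and 92.0, 96.5 and 102 in SSC. Probe 2 had 1089, 1155 and 1092 in PFGC, 1445, 1434 and 1347 in oocytes and 106, 99.1 and 116 in SSC. Again both probes put all 6 PFGC and oocyte arrays above all SSC arrays. The bounds over SSC were at least 98.2-fold in PFGC and at least 105-fold in oocytes at probe 1, and at least 29.3-fold and at least 31.1-fold at probe 2.

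Fbxw15, the F-box gene, had a single probe, with signals of 3048, 3159 and 2872 in PFGC, 3673, 3877 and 3609 in oocytes and 89.3, 89.7 and 103 in SSC. After normalization PFGC and oocytes came to the same level, 11.65 ± 0.10 in PFGC and 11.65 ± 0.11 in oocytes, against 4.36 ± 0.13 in SSC (SD, n = 3 each). It was at least 83.5-fold above SSC in PFGC and at least 83.6-fold in oocytes.

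Pramel25, the PRAME family member, also had probes that differed widely in the size of the step from SSC. Probe 1 had signals of 7578, 7969 and 7038 in PFGC, 10038, 10431 and 9252 in oocytes and 104, 101 and 114 in SSC. At probe 2 they were 267, 270 and 223 in PFGC, 333, 314 and 366 in oocytes and 92.2, 95.6 and 96.2 in SSC. At both probes the deposited signals were lowest in SSC and highest in oocytes, with no overlap between groups, though normalized levels of PFGC and oocytes overlapped at probe 2. On the background-corrected scale probe 1 put PFGC at least 206-fold and oocytes at least 227-fold above SSC, and probe 2 at least 4.79-fold and at least 5.83-fold.

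Elobl, the elongin B relative, had signals of 3869, 3985 and 3621 in PFGC, 4807, 5241 and 5350 in oocytes and 99.0, 111 and 91.4 in SSC at its only probe. Its SSC arrays varied most among the 10 probes (SD 0.30 on the log2 scale), at background. PFGC were at least 105-fold and oocytes at least 117-fold above SSC. The platform annotation ties this probe to a non-coding transcript record, whereas the RefSeq gene table lists Elobl as protein coding.

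The sizes against SSC depend on the background correction. The fitted log2 differences ran from 2.82 (Omt2b probe 2, PFGC) to 8.42 (Pramel25 probe 1, oocytes), and from 1.26 to 6.35 without background correction. The plain ratio of mean deposited signals over SSC was 39.3 in PFGC and 49.3 in oocytes for Omt2a probe 1, 70.9 and 93.3 for Pramel25 probe 1, and 2.30 and 2.93 for Omt2b probe 2, all below the bounds given above. No direction changed in any of the 420 values computed with SSC under the alternatives.

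PFGC were not called different from oocytes at any of the 10 probes. None passed limma's test at an adjusted p of 0.05 over the 19934 probes, while 9.21% of all probes did, either way. With 10 probes a count of none is near that share, so it is not read as a trait of the members. The lowest unadjusted p of that test among the 10 was 0.0769. With the replicate number as a block, none passed again, with adjusted p-values of 0.175 to 0.991, while 17.5% of all probes did. The fitted difference of PFGC minus oocyte was below 0 at all 10 probes, with a median of -0.12 on the log2 scale, against -0.04 over all probes. The largest were -0.29 for Pramel25 probe 2 (SE 0.17, 95% interval -0.66 to 0.09, limma adjusted p = 0.314) and -0.23 for Omt2b probe 2 (SE 0.12, -0.48 to 0.03, limma adjusted p = 0.245).

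Gene by gene, the intervals allow modest differences in either direction. Omt2a differed by -0.06 (95% interval -0.33 to 0.21) at probe 1 and by -0.04 (-0.28 to 0.20) at probe 2. Omt2b probe 1 differed by -0.15 (-0.38 to 0.09), and Oas1d by -0.09 (-0.33 to 0.15) and -0.08 (-0.45 to 0.28) at its probes 1 and 2. For Fbxw15 the difference was -0.002 (-0.28 to 0.27), for Pramel25 probe 1 it was -0.15 (-0.44 to 0.15) and for Elobl -0.16 (-0.54 to 0.23). A miss of the threshold does not show equal levels: over the 10 probes the intervals reach from -0.66 to 0.28. The SE of these differences had a median of 0.12, against 0.17 over all probes.

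**Figure D2:**
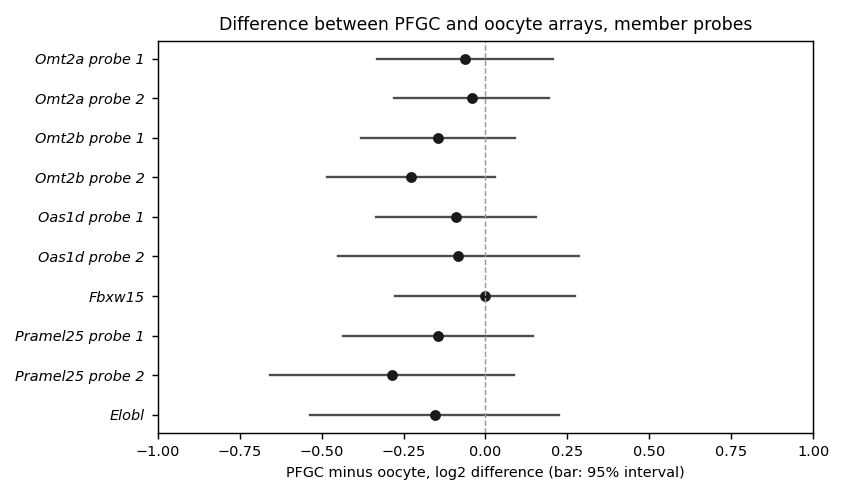
Log2 difference of PFGC minus oocyte at each of the 10 probes with its 95% interval from the limma fit (n = 3 arrays per group). The dashed line marks no difference. All 10 points lie between -0.29 and -0.002, and every interval spans 0.

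Normalization bears on this comparison. On the deposited scale all 3 PFGC signals lay below all 3 oocyte signals at 10 of 10 probes, which was so for 39.7% of all 19934 probes, and the ratio of mean signals was 0.741 to 0.813 against a median of 0.850 over all probes. After normalization the same order held at 3 of the 10 probes, against 17.8% of all probes, and the other 7 overlapped. With no normalization between arrays the members' differences were -0.52 to -0.30, all probes had a median of -0.27, and still no member was called (adjusted p 0.0792 to 0.236).

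The probes of a gene differed widely in the distance from SSC, and no such difference was called for PFGC against oocytes. The difference in PFGC minus oocyte between probe 1 and probe 2 was -0.02 for Omt2a (95% interval -0.31 to 0.27), 0.08 for Omt2b (-0.22 to 0.38), -0.01 for Oas1d (-0.36 to 0.35) and 0.14 for Pramel25 (-0.29 to 0.57). None was called by limma over 6094 pairs of probes of 4212 genes (adjusted p 0.928 to 0.994, unadjusted p 0.488 to 0.967), where 0.903% of pairs were. The gap between the probes in their PFGC minus SSC difference was, as a description, 0.08 for Omt2a, 2.07 for Oas1d, 4.47 for Omt2b and 5.10 for Pramel25 on the log2 scale.

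In the array as a whole, 784 probes were detected on all PFGC and oocyte arrays and on no SSC array, and the 10 member probes are among them. Of the other 774, limma called 13 higher and 161 lower in PFGC than in oocytes, and the median difference over the 784 was -0.30. At 361 of them (46%) the difference was within 0.3 either way, a range that holds all 10 member probes. The members were chosen partly for high PFGC values, so no test is attached to this contrast with the rest of the set.

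**Figure D3:**
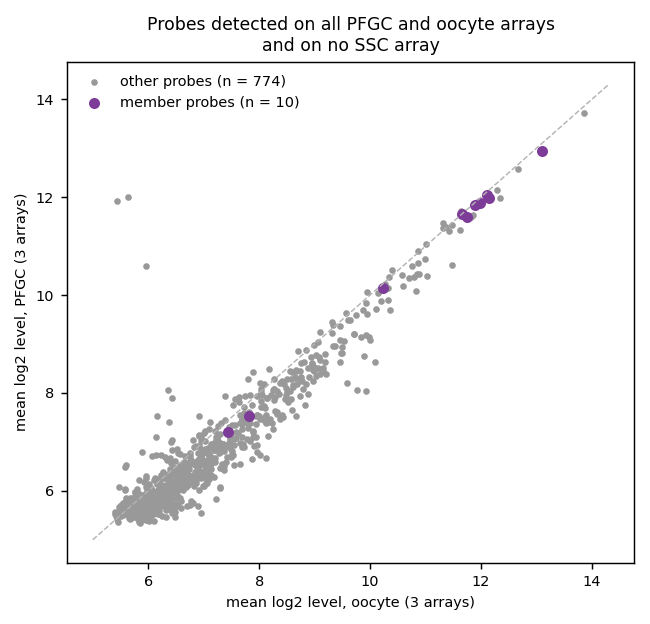
Log2 level in PFGC (vertical) against oocytes (horizontal) for the 784 probes detected on all PFGC and oocyte arrays and on no SSC array, each point the mean of 3 arrays, with the 10 member probes in purple and the dashed diagonal marking equal levels. The member probes lie close to the diagonal, and more of the other probes lie below it than above it.

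The genes whose profile over the 9 arrays was most like the mean profile of the 6 were Obox5, Rsad2, Fbxw18, H1f8, Rfpl4, Bcl2l10, Cxcl10, Cpsf4l, Pnpla3 and E330034G19Rik, with Pearson r of 0.9994 to 0.9998. The 6 genes themselves had r of 0.9989 to 1.0000 with that mean, and all such values rest mainly on the step between SSC and the other groups. Obox5 is an oocyte homeobox gene and H1f8 the oocyte linker histone, while Rsad2 and Cxcl10 are interferon-induced. Obox5 stood at 10.59 in PFGC, 10.76 in oocytes and 4.31 in SSC, and Cxcl10 at 13.63, 13.82 and 5.33 in those groups. Cxcl10 had 2 kept probes that disagreed, with a PFGC minus oocyte difference of -0.19 at the brightest, used here, and -1.21 at the other.

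Most measured relatives of Fbxw15 on chromosome 9 shared its detection pattern, though probes of near-identical genes may report each other's transcripts. Of 11 other Fbxw genes of that chromosome on the array, 9 were detected on all PFGC and oocyte arrays and no SSC array, and 2 failed the filter. Over all genes of the array the share with this pattern was 2.41%. Among the 9, oocytes exceeded SSC by at least 2.40-fold to at least 82.7-fold, a direction that their detection pattern already fixes. The list of relatives with the SCF core held 13 kept genes, of which 10 were higher and 1 lower in PFGC than in SSC (23.8% and 26.8% of all genes), and 11 higher and 1 lower in oocytes than in SSC (28.1% and 32.4%). Its median differences were 3.75 for PFGC minus SSC and 4.14 for oocyte minus SSC, against -0.06 and -0.07 over all genes. The 9 genes detected on no SSC array are among those higher in both comparisons. They passed the filter through the groups where they were high, so these counts and medians are no support.

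Fbxw18 had the largest bound among the relatives, at 11.72 in PFGC, 11.64 in oocytes and 4.48 in SSC, at least 87.7-fold above SSC in PFGC and at least 82.7-fold in oocytes. Fbxw24 followed with at least 54.4-fold and at least 53.6-fold, then Fbxw27 with at least 29.9-fold and 31.8-fold, and Fbxw26 with at least 27.9-fold and 25.5-fold. None of the 13 genes was called between PFGC and oocytes, where 6.82% of all genes were higher and 3.32% lower. The 9 relatives differed there by -0.39 to 0.13 (adjusted p 0.101 to 0.993). Fbxw17, which lies on chromosome 13 and is named after its values were seen, was detected on all 9 arrays at 10.32 in PFGC, 10.45 in oocytes and 9.81 in SSC.

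The SCF partners were present in every group. Skp1, the adaptor, was at 8.99 in PFGC, 9.15 in oocytes and 8.59 in SSC, and Cul1, the scaffold, at 9.13, 9.27 and 8.94. Rbx1, the RING subunit, was the list's gene that was lower than in SSC, at 12.17 in PFGC, 11.86 in oocytes and 12.54 in SSC (adjusted p = 0.0439 for PFGC and 0.00139 for oocytes, against SSC). The PFGC call on Rbx1 was lost without SSC replicate 2 or 3, PFGC replicate 1 or 2, or oocyte replicate 1 or 2 (adjusted p up to 0.134). These 3 genes of the core are also named after their values were seen.

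In the OAS family, 7 of 11 other genes on the array were kept and all 7 were called higher than in SSC both in PFGC (23.8% of all genes) and in oocytes (28.1%), with median log2 differences of 2.75 and 3.30 against -0.06 and -0.07 over all genes. Of these, 5 were detected on no SSC array and so passed the filter through the groups where they were high, which makes the count no support. Oas1e, in the tandem Oas1 group, was at 8.45 in PFGC, 8.74 in oocytes and 4.45 in SSC, at least 9.06-fold and at least 11.1-fold above SSC. Oas1c, in the same stretch of chromosome 5 as Oas1d, was at 8.28 in PFGC, 8.27 in oocytes and 4.75 in SSC. Like Oas1d, neither was called between PFGC and oocytes. The difference was -0.29 for Oas1e (SE 0.30, adjusted p = 0.577) and 0.01 for Oas1c (SE 0.21, adjusted p = 0.976), which does not show equal levels.

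Oasl2, Oasl1 and Oas2 are interferon-inducible members of the family. Oasl2 was at 9.25 in PFGC, 10.15 in oocytes and 6.88 in SSC, and was the only one of the 7 called between PFGC and oocytes (-0.90, SE 0.17, adjusted p = 0.0107). That call was lost without PFGC replicate 2 (adjusted p = 0.0546). Oasl1, at 7.51 in PFGC, 8.10 in oocytes and 4.76 in SSC, missed the threshold (adjusted p = 0.0616) and passed it with the replicate block (adjusted p = 0.0234). Oas2 was at 7.53 in PFGC, 7.94 in oocytes and 4.64 in SSC (adjusted p = 0.074 for PFGC against oocytes). Interferon response markers moved alongside, with 4 of 7 kept genes lower in PFGC than in oocytes (3.32% of all genes, and 2 of 7 without PFGC replicate 2). Mx1, among the 4, was detected on all 3 oocyte arrays and on no PFGC or SSC array. It passed the filter through the group where it was high, so the count of lower genes is no support. The summed signals of the 7 were 26301 to 32065 in PFGC, 39082 to 47950 in oocytes and 1023 to 1072 in SSC. The part of the interferon response in these values was not tested. Whether Oas1d differs from Oasl2 in its change was not tested.

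The PRAME family was mixed. Of 27 other members on the array 8 were kept. In PFGC against SSC 4 were higher and 1 lower (23.8% and 26.8% of all genes), and in oocytes against SSC 4 were higher and 2 lower (28.1% and 32.4%), where the 4 were again genes detected on no SSC array. In PFGC against oocytes 2 were higher and 1 lower (6.82% and 3.32%). Pramel34, Pramel26 and Pramel32 followed Pramel25, whereas Pramel12 and Pramel13 were detected on all 9 arrays and called in none of the main comparisons. Pramel34 was at 9.20 in PFGC, 9.71 in oocytes and 4.38 in SSC, Pramel26 at 8.94, 9.50 and 4.43, and Pramel32 at 8.68, 9.10 and 4.48, so oocytes were at least 21.8-fold, 18.8-fold and 14.2-fold above SSC. Pramel34 was called lower in PFGC than in oocytes (log2 difference -0.52, adjusted p = 0.0341), a call lost without PFGC replicate 1 or 2, SSC replicate 1 or any 1 oocyte replicate (adjusted p 0.0513 to 0.131). Over the 3 kept probes of Pramel34 the difference ran from -0.52, at the one used here, to -0.13. With the replicate block Pramel26 and Pramel32 were called lower as well (adjusted p = 0.0437 and 0.0419).

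Pramel4 and Prame were called higher in PFGC than in oocytes. Pramel4 was at 7.15 in PFGC, 5.54 in oocytes and 7.62 in SSC, 1.62 log2 units higher in PFGC than in oocytes (SE 0.23, adjusted p = 0.00234). Prame, the X-linked gene that names the family, was detected on 1 PFGC array, on no oocyte array and on all 3 SSC arrays, with levels of 5.13 in PFGC, 4.36 in oocytes and 8.02 in SSC. It was called higher in PFGC than in oocytes (adjusted p = 0.0154), a call lost without oocyte replicate 1 (adjusted p = 0.0514) or 2 (adjusted p = 0.0582), and no fold is given so near background. At Prame, oocytes were at least 7.02-fold lower than SSC. Markers of testis cells were also higher in PFGC than in oocytes. Of 9 undifferentiated spermatogonia markers 5 were called higher (6.82% of all genes), with Thy1 at 1.48 and Gfra1 at 1.43, and summed signals of 1341 to 1695 in PFGC, 1175 to 1328 in oocytes and 3651 to 4351 in SSC. Of 7 kept Sertoli markers 4 were higher (6.82% of all genes), with Rhox5 at 4.19 and Cldn11 at 2.82, and sums of 14458 to 22748 in PFGC, 4782 to 5167 in oocytes and 52306 to 56772 in SSC. Against SSC, 5 of the 7 were lower in PFGC and 1 was higher (26.8% and 23.8% of all genes). The higher gene was Rhox5, at 9.35 in PFGC and 8.67 in SSC (log2 difference 0.68, adjusted p = 0.0102). The part of testis cells in the Pramel4 and Prame values was not tested.

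Elobl contrasted with the elongins it resembles. All 7 elongin and cullin ligase genes on the array were kept, none had the pattern of Elobl, and 2 were higher and 4 lower in PFGC, and likewise in oocytes, than in SSC, against 23.8% higher and 26.8% lower of all genes in PFGC and 28.1% and 32.4% in oocytes. The count of lower genes in PFGC was 2 without SSC replicate 3 or PFGC replicate 1, with 75th percentile scaling or with only PFGC and SSC fitted, and 1 with no normalization between arrays. Elob, the elongin B gene, was at 13.16 in PFGC, 12.84 in oocytes and 13.58 in SSC, lower than in SSC in PFGC (adjusted p = 0.0109) and in oocytes (adjusted p = 0.000249), though not in PFGC with no normalization between arrays (adjusted p = 0.141). Eloc, its partner, was higher than in SSC, at 8.96 in PFGC, 9.01 in oocytes and 8.01 in SSC, as was Cul5, at 9.01, 9.15 and 8.20. Vhl, a substrate receptor, was lower, at 5.18 in PFGC and 5.10 in oocytes against 6.07 in SSC. It was detected on only 1 PFGC array and 1 oocyte array, near background, and on all 3 SSC arrays. Vhl therefore adds no support to the counts of lower genes. None of the 7 was called between PFGC and oocytes, with a median difference of 0.08, and with the replicate block Elob was called higher in PFGC (adjusted p = 0.0488).

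**Figure D4:**
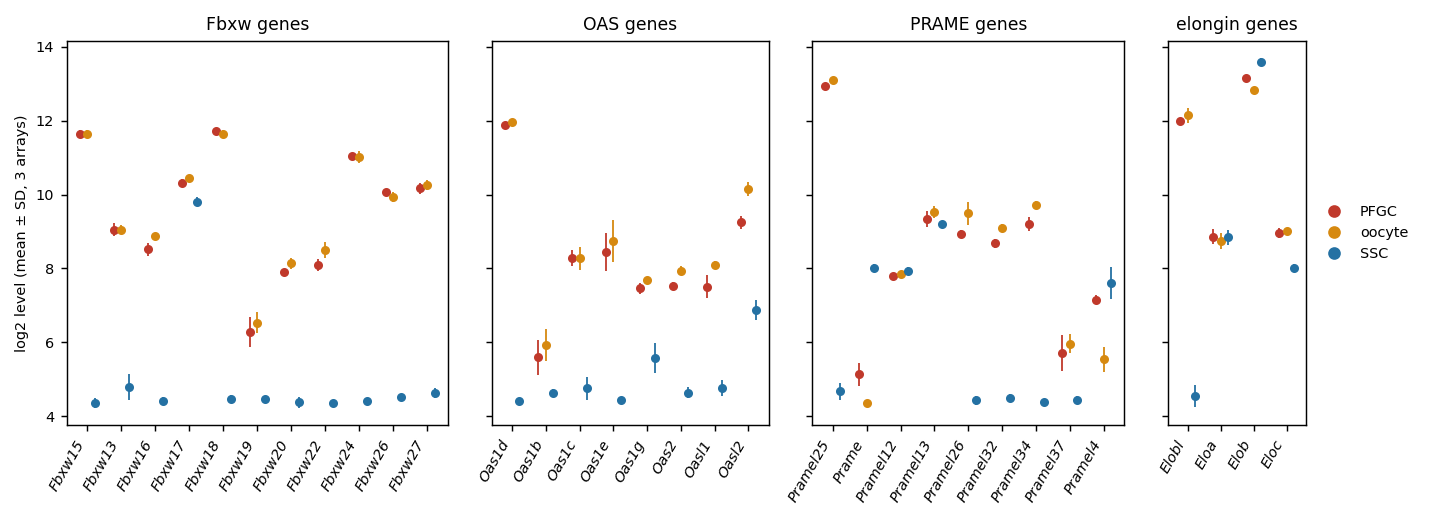
Normalized log2 level (mean ± SD, 3 arrays) in PFGC, oocytes and SSC of each member and its kept relatives in the Fbxw, OAS, PRAME and elongin families, each gene through its brightest kept probe. SSC points lie near background for the members and for most Fbxw genes. Oasl2, Fbxw17, Pramel4, Pramel12, Pramel13, Prame and the 3 elongin genes other than Elobl are well above it in SSC.

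The surroundings of the 6 genes, taken as the 5 nearest protein-coding genes on each side in the GRCm38.p6 annotation, were looked up after the members' values were known. All 10 neighbours of Fbxw15 were Fbxw genes and all 10 of Pramel25 were PRAME genes, and 5 of the 10 around Oas1d belonged to the OAS family. Elobl had no elongin gene among its 10, so the description as a tandem family does not hold for it. Omt2a and Omt2b were each other's only relative, in a stretch with glutathione transferase genes, Dppa5a and the oocyte gene Ooep.

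Neighbours outside the 6 genes shared the pattern of detection unevenly. Around Fbxw15, 7 of 8 genes on the array were detected in PFGC and oocytes and in no SSC array, against 2.41% of all genes of the array. These 7 are among the Fbxw relatives already counted above and are no separate observation. Around Omt2a, with Omt2b left out, none of 6 was, and all 6 were detected on all 9 arrays. Ooep, a maternal factor of the subcortical complex, was at 13.64 in PFGC, 13.51 in oocytes and 7.28 in SSC, while Gsta4, a glutathione transferase, ran the other way at 11.07, 10.19 and 12.14. Around Pramel25 1 of 8 had the pattern, around Oas1d 1 of 10 and around Elobl none of 10. The genes with it were Pramel26 and Oas1c, both given above. The filter kept 1 of these neighbours around Pramel25, 4 around Oas1d and 7 around Elobl, and the others have no level here.

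Some oocyte markers outside these families were called between PFGC and oocytes, where no member was. The members were chosen partly for high PFGC values, and whether markers and members differ was not tested. Of 11 kept oocyte markers 11 were higher in PFGC (23.8% of all genes) and 11 in oocytes (28.1%) than in SSC. Of these, 6 were detected on no SSC array and so passed the filter through the groups where they were high, which makes the count no support. In PFGC 4 were lower than in oocytes (3.32% of all genes), or 8 with the replicate block (7.45%). Zp3, a zona pellucida glycoprotein, was lower in PFGC (log2 difference -0.82, limma adjusted p = 0.00977), as was Gdf9, an oocyte growth factor (-0.87, adjusted p = 0.0414) and Zp1, another zona glycoprotein (-0.60, adjusted p = 0.028), while Ooep differed by 0.13 and was not called. Figla, which encodes an E-box factor, was lower in PFGC (-0.75, adjusted p = 0.0301), and Nobox differed by -0.61 and was not called. The count of 4 was 1 without PFGC replicate 2 or 3 or oocyte replicate 1 or 2, and 2 without oocyte replicate 3, with Zp3 called throughout.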

How the data were processed

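RNA was hybridised to 9 Illumina arrays of 3 groups, assigned from the titles. Per the submitters' processing notes, the software was GenomeStudio, with no version given in the sources used here. Per the file headers, each probe has a signal intensity and a detection p-value for each array in the non-normalized table that the authors deposited, and their processed intensity table served as an alternative. In limma 3.58.1 (R 4.3.3), background was corrected by normexp with an offset of 16, using detection p-values to infer the control level, arrays were quantile normalized, and values were taken to log2. Probes with detection p under 0.01 on at least 3 of 9 arrays were kept (19934). One fit held the 3 groups (lmFit, eBayes, two-sided), with Benjamini-Hochberg adjustment over all kept probes, and an adjusted p under 0.05 was a call. A gene outside the members is read through its kept probe with the highest mean. The fit was tested on simulated data.

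For a bound, the dim group's value on each array was the probe's own or the lowest detected value there, whichever was higher, and these were averaged. Symbols came from the platform annotation, updated through RefSeq: 34885 probes had 1 symbol, 18 several and 10378 none here, and 34807 named probes matched (99.8%). Probe sequences were not used here, so probes of near-identical Omt2, Oas1, Fbxw and PRAME genes may report each other's transcripts. Promoters came from RefSeq, with 5 of the 6 genes matched and Oas1d not.

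The members, the lists and the alternatives were chosen with earlier results of these data known. Named genes are the members, up to 4 genes per related list by size of change among those called in PFGC minus oocyte and in oocyte minus SSC, and the 10 most alike in profile. Marker genes, neighbours, Fbxw17, Pramel12, Pramel13, Skp1, Cul1 and Rbx1 are named outside this rule, after their values were seen. The number of arrays limits the precision. Same-numbered replicates share their number in the labels, and their deviations from group means correlated at 0.304, 0.23 and 0.565 between PFGC and oocytes, at 0.217, 0.224 and 0.433 between PFGC and SSC and at 0.214, 0.136 and 0.404 between oocytes and SSC. By the rule that every pair be over 0.1 the numbers pair the samples, and a fit with the replicate number as a block was run beside each result.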

Additional observations from a re-analysis of the deposited data

How the results depend on the processing

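Each result was recomputed under 21 alternatives, 9 of which left out 1 array and 12 of which changed the background correction, normalization, filter or model. No member probe was called between PFGC and oocytes in any of the 210 values. Fbxw15, whose PFGC minus oocyte difference is near 0, changed sign with array weights (0.002) and ranged from -0.054 to 0.06 when 1 array was left out, including 0.009 without PFGC replicate 1, 0.04 without PFGC replicate 2 and 0.06 without oocyte replicate 3. Of 420 member values against SSC, 76 moved by more than the replicate SD and 0 reversed.

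The number of probes called in PFGC minus oocyte was 1836, and became 4499 with array weights, 3479 with the replicate block and 654 to 2335 without single arrays, lowest without PFGC replicate 2 and also low without oocyte replicate 1 (709), oocyte replicate 2 (794), PFGC replicate 3 (1112) and oocyte replicate 3 (1139). Of those called, 60.3% were higher in PFGC, against 27.8% with no normalization between arrays, 49.5% with array weights, and 72.9%, 71.9% and 70.8% without PFGC replicate 2, oocyte replicate 1 and oocyte replicate 2. Pairs of probes that differed numbered 55, and 83 without background correction, 85 on the authors' processed values, 224 with no filter, 135 with array weights, 97 with the replicate block and 25 to 59 without single arrays. Counts of probes called against SSC stayed within 1.5 times, at 8091 to 9728 for PFGC and 10226 to 11634 for oocytes without single arrays. With the replicate block no member call changed, and the calls it added between PFGC and oocytes in the related families stand beside those genes. Against SSC it made 11 rather than 10 genes of the Fbxw and SCF list higher in PFGC, and 5 rather than 4 PRAME genes higher in oocytes. Among the markers it made 3 rather than 1 granulosa genes and 1 rather than 0 fibroblast genes lower in PFGC than in oocytes, and 2 rather than 1 fibroblast genes higher in oocytes than in SSC, and beyond the 8 rather than 4 oocyte markers already given it left the other lists' counts as they were. A fit with the chip as a block was not run, because the headers name no chip. The causes of these shifts were not tested. Signals at background in SSC limit the sizes given against SSC to bounds.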
